A study of Arabidopsis thaliana with 42 samples.

Results

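The 10 genes described here are the markers that Arabidopsis plants are known to switch on when sulfur runs short, together with their regulator. They are SDI1 (AT5G48850), SDI2 (AT1G04770), LSU1 (AT3G49580), LSU2 (AT5G24660), LSU3 (AT3G49570), LSU4 (AT5G24655), BGLU28 (AT2G44460), SHM7 (AT1G36370), GGCT2;1 (AT5G26220) and the transcription factor SLIM1 (AT1G73730). They were taken by locus from count tables of 37336 genes, and all 10 passed the filter on low counts in seedlings and in flower buds. RNA was sequenced from 42 libraries of Arabidopsis thaliana Col-0, 18 of whole seedlings at an age of 14 days and 24 of unopened buds. The seedlings were wild type (WT), mtn1-1mtn2-1 or mtn1-1mtn2-5, with 3 libraries for each genotype and medium. The buds were labelled WT, mtn1-1mtn2-1 or G3, with 4 libraries each. The labels also give G3 the genotype mtn1-1mtn2-1 and do not say what sets it apart. Both double mutants carry mutant alleles of MTN1 (AT4G38800) and MTN2 (AT4G34840). Seedlings grew in continuous light on agarose medium with sucrose, either the mock medium (MS) or the same medium with 100 µM spermidine (Spd). Plants kept for buds went on to soil in long days, and the labels do not say whether spermidine was given there.

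MTN1 and MTN2 encode the nucleosidases that cleave methylthioadenosine, a sulfur-containing compound left over when polyamines, ethylene and nicotianamine are made, so that its sulfur returns to methionine. Spermidine is a polyamine, and its synthesis is one source of methylthioadenosine. Sulfate taken up by the plant is activated, reduced and built into cysteine, and from there into methionine, glutathione and glucosinolates. When sulfate is scarce, SLIM1, also called EIL3, is known to raise the transcripts of many of these markers while its own transcript changes little. SDI1 and SDI2 repress the synthesis of aliphatic glucosinolates, and BGLU28 is a beta-glucosidase that breaks glucosinolates down. GGCT2;1 degrades glutathione in the cytosol, SHM7 (also called MSA1) is a nuclear protein of the serine hydroxymethyltransferase family, and the LSU genes encode small proteins that bind many partners. SDI1, LSU1, SHM7 and GGCT2;1, together with APR3 and SERAT3;2, are known as genes whose transcripts follow O-acetylserine, the precursor of cysteine.

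The depth was 40.3 to 48.3 M fragments in the seedling libraries, and 19.0 to 23.4 M in those of buds. MTN1 checked the labels. In seedlings it stood at 100.4 to 109.4 CPM (counts scaled to library size by TMM) in WT, at 4.03 to 5.93 in mtn1-1mtn2-1 and at 4.37 to 4.89 in 5 of the 6 mtn1-1mtn2-5 libraries. Library 2 of mtn1-1mtn2-5 on MS stood apart at 20.7 CPM. The marker calls of the main fits, the list counts and the likeness ranks that rest on it are given with and without it. Values that were not called are given with it only, as are those of other tools. MTN2 was at 0.056 to 0.129 CPM in mtn1-1mtn2-1 and at 7.66 to 9.19 in mtn1-1mtn2-5, where it was no lower than the 6.82 to 8.87 of WT. In buds the names disagree between the deposited tables. By count-table name, MTN1 stood at 84.3 to 96.3 CPM in libraries labelled G3, at 4.57 to 6.57 in those labelled WT and at 2.70 to 4.32 in those labelled mtn1-1mtn2-1. MTN2 stood at 8.16 to 11.9, at 0.0124 to 0.262 and at 0 to 0.142 CPM in the same order. The TPM table puts the high values under the name WT, with MTN1 at 119 ± 4.08 TPM and MTN2 at 11.1 ± 1.35 (mean ± SD, n = 4) on MS. The ratio of TPM to CPM varied more than 2-fold among bud libraries for 51.7% of 20926 genes under the names as given, and for 3.67% with WT and G3 exchanged in 1 table. Both target genes thus go against the count-table names WT and G3 in every such library: both are as low in those labelled WT as in mtn1-1mtn2-1 seedlings, or nearly so, and high in those labelled G3. The count-table names are kept below as labels only, and each bud direction is also given under the names of the TPM table, where the libraries labelled G3 are the WT and those labelled WT are G3. Leaf and root markers were present in seedlings (5 of 5 each), where the anther markers summed to at most 0.414 CPM with MS1 and A9 at 0, and in buds the floral organ and anther markers summed to 479 to 814 and 281 to 458 CPM. Tissue was pooled before extraction and no source names separate cultures, so p-values measure the spread between these libraries, which may be partly technical.

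Promoters of 4 genes are shown because they carry the sequence motifs most often tied to sulfur shortage, or, for SHM7, because neither occurs there and its transcript had one of the largest differences in seedlings. Each runs 5′ to 3′ over the 250 bases before the annotated start (RefSeq, assembly TAIR10.1). Capitals mark GAGAC, the core of the sulfur-responsive element, or CATTGAA, a core of the UPE-box first described in tobacco, searched on both strands with no overlap between them.
SDI1, chr5:19807854-19808103, minus strand: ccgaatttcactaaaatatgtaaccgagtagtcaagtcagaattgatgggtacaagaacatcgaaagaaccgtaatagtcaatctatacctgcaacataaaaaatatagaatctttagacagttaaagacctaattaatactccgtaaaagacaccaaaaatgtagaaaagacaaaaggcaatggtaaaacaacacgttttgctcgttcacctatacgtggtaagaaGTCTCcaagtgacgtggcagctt
GGCT2;1, chr5:9164885-9165134, minus strand: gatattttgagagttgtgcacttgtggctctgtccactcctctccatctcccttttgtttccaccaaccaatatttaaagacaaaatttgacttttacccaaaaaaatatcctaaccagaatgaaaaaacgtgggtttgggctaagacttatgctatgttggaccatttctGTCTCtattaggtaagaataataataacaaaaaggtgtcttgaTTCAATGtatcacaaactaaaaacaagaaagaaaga
SLIM1, chr1:27732684-27732933, minus strand: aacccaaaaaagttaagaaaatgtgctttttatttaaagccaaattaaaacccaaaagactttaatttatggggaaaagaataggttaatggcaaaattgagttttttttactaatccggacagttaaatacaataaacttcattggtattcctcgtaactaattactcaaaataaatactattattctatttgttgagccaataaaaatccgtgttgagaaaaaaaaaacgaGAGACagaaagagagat
SHM7, chr1:13698740-13698989, minus strand: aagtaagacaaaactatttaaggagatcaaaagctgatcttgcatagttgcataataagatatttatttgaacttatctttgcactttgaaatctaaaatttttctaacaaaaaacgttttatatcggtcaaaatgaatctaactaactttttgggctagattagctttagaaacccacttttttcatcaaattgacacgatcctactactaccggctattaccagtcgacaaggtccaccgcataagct

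In SDI1 the capitals read GTCTC, the element on the other strand, 23 bases before the start. GGCT2;1 holds the same letters 79 bases before its start and TTCAATG, the UPE-box core on the other strand, 36 bases before it. SLIM1 holds GAGAC 17 bases before the start. GAGAC occurred in 5 of the 10 promoters, those of SDI1, LSU4, BGLU28, GGCT2;1 and SLIM1, and in 25.8% of 27443 promoters of that length. CATTGAA occurred in 1 of the 10 and in 5.35% of all. A match is a string of letters, not a binding site. LSU3 and LSU1 are neighbours on chromosome 3, and LSU4 and LSU2 on chromosome 5, with 0 protein-coding genes between each pair. How reads shared among the 4 LSU genes were assigned is not given in the sources used here, so the split of reads among them is uncertain. SDI2 also overlaps AT1G04760 on the opposite strand by 431 bases, and the strand setting of the counting is not given either.

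Per length, the markers spanned a wide range of levels in WT seedlings on MS. SHM7 was the highest at 136 ± 17.0 TPM (mean ± SD, n = 3 here and for the other seedling groups), then SDI2 at 86.1 ± 6.50, LSU2 at 59.7 ± 9.39, LSU1 at 38.8 ± 4.52, SDI1 at 37.6 ± 7.97 and LSU3 at 27.1 ± 2.47. SLIM1 followed at 15.2 ± 0.426 TPM, then LSU4 at 9.81 ± 0.687, GGCT2;1 at 9.54 ± 0.752 and BGLU28 at 2.72 ± 0.426. Among neighbours in this order, the 3 libraries overlapped for LSU1 and SDI1 and for LSU4 and GGCT2;1, and for no other pair.

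On mock medium, 6 of the 10 markers were lower in mtn1-1mtn2-1 seedlings than in WT, namely SDI1, SDI2, LSU2, LSU3, SHM7 and GGCT2;1, and 0 were higher. The glucosinolate repressor SDI1 was at 27.0, 27.6 and 38.5 CPM in the 3 WT libraries and at 7.03, 12.1 and 11.0 in mtn1-1mtn2-1. Every mutant library lay below every WT library, and the mean was 3.10 times lower. By edgeR's quasi-likelihood test, with p-values adjusted over all genes, the log2 fold change was -1.63 (SE 0.30, adjusted p = 0.0028). SHM7 was at 185, 182 and 226 CPM in WT and at 63.2, 111 and 84.3 in the mutant (log2 fold change -1.20, SE 0.21, adjusted p = 0.002). The glutathione-degrading GGCT2;1 was at 6.90, 7.12 and 7.79 CPM in WT and at 2.41, 4.05 and 2.90 in the mutant (log2 fold change -1.22, SE 0.25, adjusted p = 0.0053). For both genes the groups were apart. LSU3 was at 15.3, 13.6 and 16.5 CPM in WT and at 4.41, 7.49 and 7.15 in the mutant, also without overlap (-1.25, SE 0.29, adjusted p = 0.011). SDI2 had a smaller difference of -0.97 (SE 0.19, adjusted p = 0.0043), and LSU2 one of -0.85 (SE 0.24, adjusted p = 0.027). In whole seedlings, fewer cells that express a gene and less RNA per cell cannot be told apart.

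Of all 25201 genes tested, 8.12% were lower in this comparison, against 6 of the 10 markers. The markers had a median log2 fold change of -0.94, where all genes had 0.01. The summed root markers moved in the same direction, at 73.1 to 85.7 CPM in mtn1-1mtn2-1 on MS against 96.7 to 124 in WT (5 of 5 markers detected), and their part in the result was not tested. Without mtn1-1mtn2-1 library 1 or 3, or WT library 1 or 2, LSU2 was no longer called (range -0.99 to -0.74 over the 6 fits, highest adjusted p = 0.11). The other 5 were called in each of these fits.

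In mtn1-1mtn2-5, 4 markers were lower than in WT on MS and 0 were higher, against 4.33% of all genes that were lower. SDI2 was at 80.0, 69.5 and 77.9 CPM in WT and at 36.7, 24.4 and 28.3 in mtn1-1mtn2-5 (log2 fold change -1.35, SE 0.19, adjusted p = 3.1e-04). LSU2 was at 38.8, 34.6 and 28.0 CPM in WT and at 18.1, 7.42 and 11.4 in the mutant (-1.46, SE 0.24, adjusted p = 0.0011). Neither gene overlapped between the groups. LSU3 differed by -1.42 (SE 0.29, adjusted p = 0.0061) and GGCT2;1 by -1.06 (SE 0.25, adjusted p = 0.015). Library 2 of the mutant, in which MTN1 stood apart, held the lowest LSU2 value. Without it 3 genes were called, SDI2 at -1.22, LSU2 at -1.19 and LSU3 at -1.29, while GGCT2;1 was at -0.82 with adjusted p = 0.059. Of all genes, 1347 were then called in either direction, where 1939 were with that library. GGCT2;1 was also lost without mtn1-1mtn2-5 library 3. SDI1, at 19.7, 11.7 and 15.1 CPM in the mutant, and SHM7, at 143, 113 and 119.8 CPM, were below all WT libraries but missed the threshold, with log2 fold changes of -1.01 (adjusted p = 0.052) and -0.66 (adjusted p = 0.071). Both comparisons with WT use the same 3 WT libraries.

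Set directly against mtn1-1mtn2-1 on MS, mtn1-1mtn2-5 differed in 0 of the 10 markers by edgeR, where 27.7% of all genes were called in either direction. At an unadjusted p under 0.05 the count was 2, LSU2 and SHM7, and it was 2 with DESeq2 and 1 with limma on TPM. Over all genes the same counts were 9854, 7827 and 7359. SHM7 was higher in all 3 mtn1-1mtn2-5 libraries than in any of mtn1-1mtn2-1, with a log2 difference of 0.54 (95% interval 0.096 to 0.98, adjusted p = 0.066). LSU2 had a difference of -0.61 (95% interval -1.12 to -0.097, adjusted p = 0.072), with overlapping libraries. Without mtn1-1mtn2-1 library 2 or 3, or mtn1-1mtn2-5 library 1, 1 marker was called. It was 0 without the mtn1-1mtn2-5 library in which MTN1 stood apart, where 5527 of all genes were called in either direction.

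**Figure D1:**
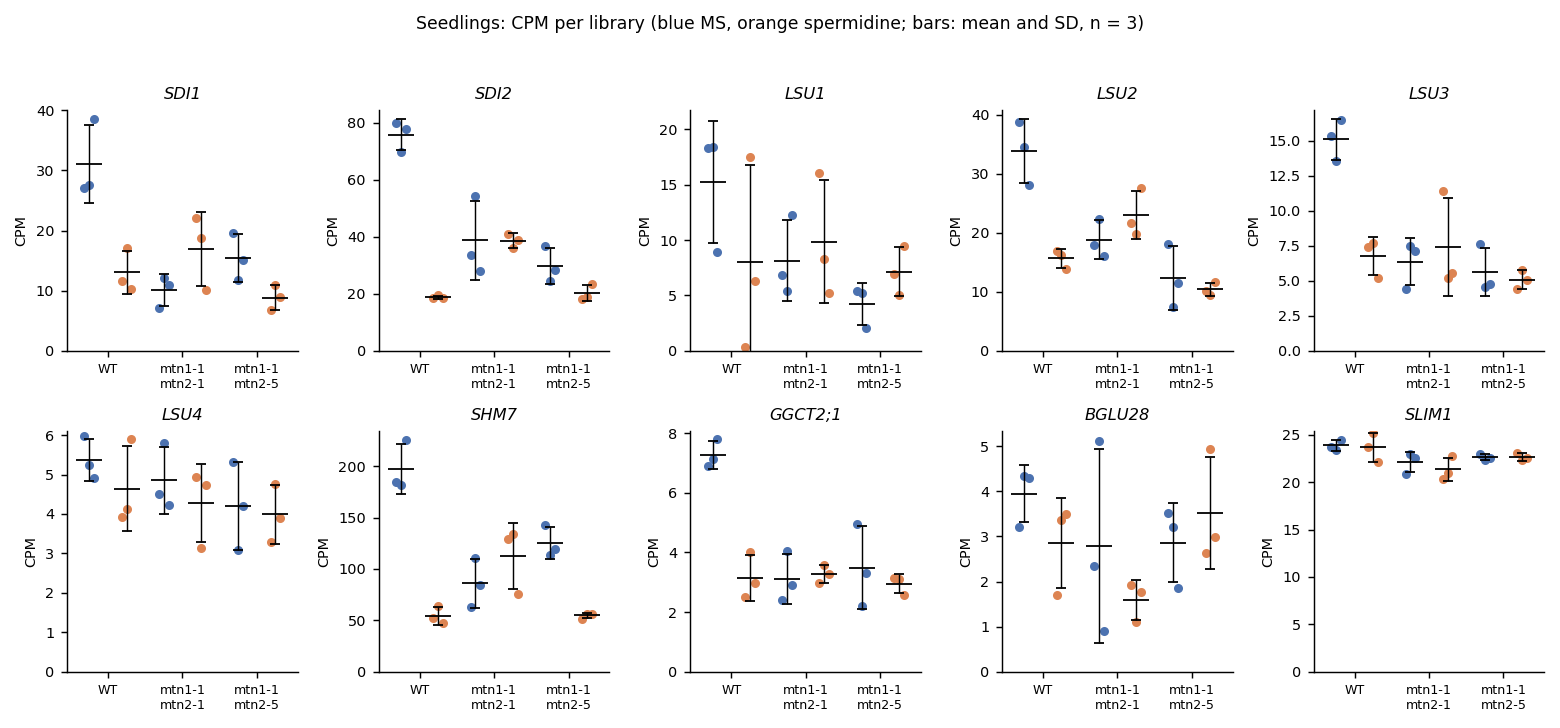
CPM of each marker (vertical axis, linear, from 0) in every seedling library, by genotype, with MS in blue and spermidine in orange; points are libraries, bars the mean and SD of 3. WT on MS is the highest group for SDI1, SDI2, LSU2, LSU3, SHM7 and GGCT2;1, without overlap with WT on spermidine, while SLIM1 stays between 20.3 and 25.1 CPM in all 18 libraries. The share of all genes without overlap was not counted.

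Spermidine lowered 6 markers in WT seedlings and raised 0, and SDI2 and SHM7 had the largest differences among the 10. SDI2 was at 80.0, 69.5 and 77.9 CPM on MS and at 18.3, 19.4 and 18.4 on spermidine, 4.05 times lower. Its log2 fold change was -2.02 (SE 0.20, adjusted p = 1.7e-05). SHM7 was at 185, 182 and 226 CPM on MS and at 52.5, 63.9 and 47.0 on spermidine, a log2 fold change of -1.86 (SE 0.21, adjusted p = 5.9e-05). In both genes the 3 spermidine libraries lay far below the 3 on MS. SDI1 was at 11.6, 17.1 and 10.3 CPM on spermidine (-1.25, SE 0.30, adjusted p = 0.014). GGCT2;1 was at 2.49, 4.00 and 2.96 CPM (-1.21, SE 0.25, adjusted p = 0.0054). LSU2 at 16.9, 16.2 and 13.8 CPM and LSU3 at 7.41, 7.70 and 5.18 CPM were lower by -1.11 (adjusted p = 0.0075) and -1.16 (adjusted p = 0.018). None of these 6 genes overlapped between the media in WT, but the share of all genes without overlap was not counted.

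The count of 6 lower and 0 higher markers stood against 6.13% of all genes that fell with spermidine in WT. SDI1 was lost without WT MS library 3 or WT Spd library 1 or 3 (log2 range -1.50 to -1.05, highest adjusted p = 0.066). LSU3 was lost without WT MS library 3 or WT Spd library 3 (range -1.26 to -1.001, highest adjusted p = 0.075). Root markers summed to 91.9 to 131 CPM in WT on spermidine, which overlaps the range on MS.

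Spermidine gave 0 called markers in mtn1-1mtn2-1 seedlings, where edgeR called 0% of all genes, 0 of 25201. At an unadjusted p under 0.05 there were 1741 genes, DESeq2 called 112 and limma on TPM 99. Among the markers the unadjusted count was 1, SDI1, and both other tools called 0. SDI1 stood at 7.03, 12.1 and 11.0 CPM on MS and at 22.0, 18.7 and 10.1 on spermidine, with overlapping libraries (log2 fold change 0.76, 95% interval 0.12 to 1.39, adjusted p = 0.61). SHM7 was at 129, 134 and 75.5 CPM on spermidine (0.39, 95% interval -0.054 to 0.83), and SDI2 was at 41.1, 36.0 and 38.7 CPM, with an interval of -0.41 to 0.40 around -0.002. These intervals do not reach the WT estimates of -1.86 and -2.02.

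The difference between the spermidine responses was itself tested. Relative to the response of WT, the log2 response of mtn1-1mtn2-1 was higher for 5 markers, against 3.57% of all genes. SHM7 differed by 2.25 (SE 0.30, adjusted p = 4.8e-04), SDI2 by 2.02 (SE 0.27, adjusted p = 5.4e-04) and SDI1 by 2.01 (SE 0.42, adjusted p = 0.011). LSU2 differed by 1.40 (SE 0.34, adjusted p = 0.025) and GGCT2;1 by 1.28 (SE 0.35, adjusted p = 0.047), both near the threshold. LSU3 had a like size, 1.38, but missed it (adjusted p = 0.067). GGCT2;1 was lost in 10 of the 12 fits that left out 1 library, all but those without mtn1-1mtn2-1 MS library 2 or WT Spd library 2 (range 1.12 to 1.49). LSU2 was lost without mtn1-1mtn2-1 MS library 1 or 3, WT MS library 1 or 2, or WT Spd library 3 (range 1.23 to 1.53), and the count was then 3. With the replicate number as a block the GGCT2;1 value was 1.30 (adjusted p = 0.069) and the count 4. The interaction shares the WT MS and mtn1-1mtn2-1 MS libraries with the comparisons above and is no separate evidence.

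In mtn1-1mtn2-5, spermidine lowered 1 marker, SHM7, against 3.09% of all genes that fell. SHM7 was at 143, 113 and 119.8 CPM on MS and at 51.7, 56.4 and 56.0 on spermidine, without overlap (log2 fold change -1.20, SE 0.21, adjusted p = 0.0052). SDI1 and SDI2 were also apart between the media, SDI1 at 19.7, 11.7 and 15.1 CPM on MS and 6.69, 10.9 and 8.88 on spermidine, but missed the threshold with -0.81 (adjusted p = 0.14) and -0.57 (adjusted p = 0.11). DESeq2 called 3 markers here, beside 2254 of all genes. The response differed from that of WT for 1 marker, SDI2, at 1.45 (SE 0.27, adjusted p = 0.012), against 0.996% of all genes that were higher. Without the library in which MTN1 stood apart, the SHM7 response was -1.26 and the SDI2 interaction 1.33, and both were still called. Without mtn1-1mtn2-5 MS library 1 the interaction gave 2 markers.

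**Figure D2:**
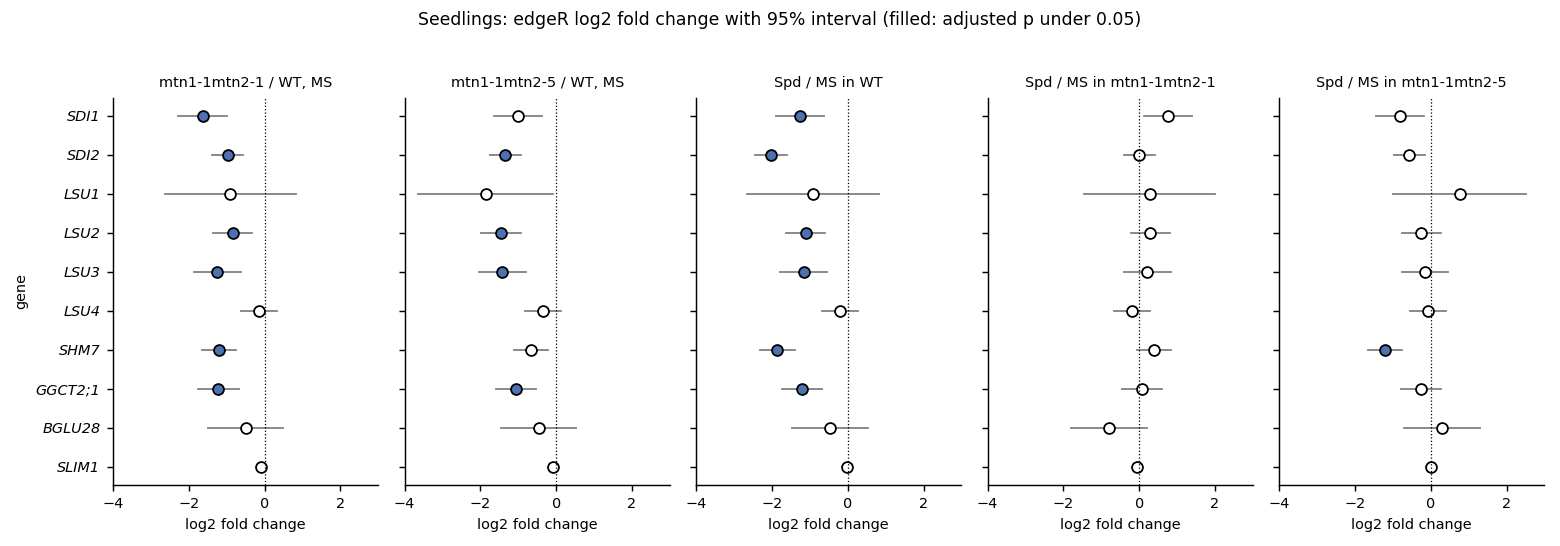
Log2 fold change of each marker (horizontal axis) with its 95% interval in 5 seedling comparisons, 3 libraries per group, filled where the adjusted p is under 0.05. The left 3 panels, mtn1-1mtn2-1 and mtn1-1mtn2-5 against WT on MS and spermidine in WT, hold 6, 4 and 6 filled points, all below 0; spermidine in mtn1-1mtn2-1 has 0 and in mtn1-1mtn2-5 has 1, SHM7.

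Between genotypes grown on spermidine, SDI2 and SHM7 were higher in mtn1-1mtn2-1 than in either WT or mtn1-1mtn2-5. In mtn1-1mtn2-1, 2 markers were higher than in WT and 0 were lower, against 10.9% of all genes that were higher. SDI2 was at 41.1, 36.0 and 38.7 CPM in mtn1-1mtn2-1 and at 18.3, 19.4 and 18.4 in WT, without overlap (log2 fold change 1.05, SE 0.19, adjusted p = 0.0019). SHM7 was at 129, 134 and 75.5 CPM in mtn1-1mtn2-1 and at 52.5, 63.9 and 47.0 in WT (1.05, SE 0.21, adjusted p = 0.0031). The mutant's lowest SHM7 library was above the highest of WT. LSU2 leaned the same way, with 3 of 3 mutant libraries above all of WT, at 0.56 (adjusted p = 0.12). SDI1 was at 0.38 (95% interval -0.25 to 1.01) and GGCT2;1 at 0.058 (-0.47 to 0.59), both with overlap. The summed root markers were lower, at 69.1 to 78.6 CPM in mtn1-1mtn2-1 against 91.9 to 131 in WT on spermidine. That is opposite in direction to SDI2 and SHM7, and the part of the root markers in the result was not tested.

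For mtn1-1mtn2-5 against WT on spermidine edgeR called 0 markers, where 13% of all genes were called in either direction. The unadjusted count was 1, LSU2 at -0.59 (adjusted p = 0.13), and DESeq2 and limma on TPM called 0. Over all genes the unadjusted count was 6523, and DESeq2 called 4160 and limma 3473. SHM7, at 51.7, 56.4 and 56.0 CPM in mtn1-1mtn2-5, differed from WT by 0.006 with a 95% interval of -0.44 to 0.45. The interval of SDI2 was -0.30 to 0.52 around 0.11.

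The 2 double mutants themselves differed on spermidine, with 4 markers lower in mtn1-1mtn2-5 than in mtn1-1mtn2-1 and 0 higher, against 14.2% of all genes that were lower. LSU2 was at 10.2, 9.39 and 11.6 CPM in mtn1-1mtn2-5 and at 21.7, 19.8 and 27.5 in mtn1-1mtn2-1 (log2 fold change -1.15, SE 0.24, adjusted p = 0.0029). SHM7 differed by -1.04 (SE 0.21, adjusted p = 0.0021) and SDI2, at 18.1, 18.8 and 23.4 CPM in mtn1-1mtn2-5, by -0.94 (SE 0.19, adjusted p = 0.0024). These 3 genes did not overlap between the mutants, but the share of all genes without overlap was not counted. SDI1 overlapped, and its difference of -0.94 (adjusted p = 0.03) was lost without mtn1-1mtn2-1 Spd library 1 or 2 or mtn1-1mtn2-5 Spd library 1 or 3 (range -1.20 to -0.71), and when the fit held only these groups (adjusted p = 0.065). Root markers summed to 69.1 to 78.6 CPM in mtn1-1mtn2-1 on spermidine and to 106 to 117 in mtn1-1mtn2-5, opposite in direction to the markers, and their part in the result was not tested. The comparisons on spermidine share libraries with one another.

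LSU1 was called in 0 of the 11 seedling comparisons of counts, and its counts and TPM disagreed. In WT on spermidine the 3 libraries had 0.285, 17.5 and 6.27 CPM, and library 1 rested on only 44 counts, about 13.2 fragments. The TPM table gives 33.2, 37.0 and 29.3 TPM for the same libraries. The ratio of TPM to CPM ran from 1.97 to 115 over the 18 seedling libraries and was above 4 in 9 of them, while for SDI1 it stayed between 1.19 and 1.28. A ratio that varied more than 2-fold among libraries was found for 2.66% of 20244 genes with a mean of at least 1 TPM. On the log2(TPM + 1) scale, limma called LSU1 lower in mtn1-1mtn2-1 than in WT on MS (-0.84 ± 0.25, adjusted p = 0.033, mean ± SE), in a test that called 7.43% of all genes lower. By counts the difference was -0.90 (SE 0.82, adjusted p = 0.49), with overlapping libraries. The TPM values were 35.8, 36.6 and 44.0 in WT and 13.3, 27.4 and 25.9 in mtn1-1mtn2-1, without overlap.

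**Figure D3:**
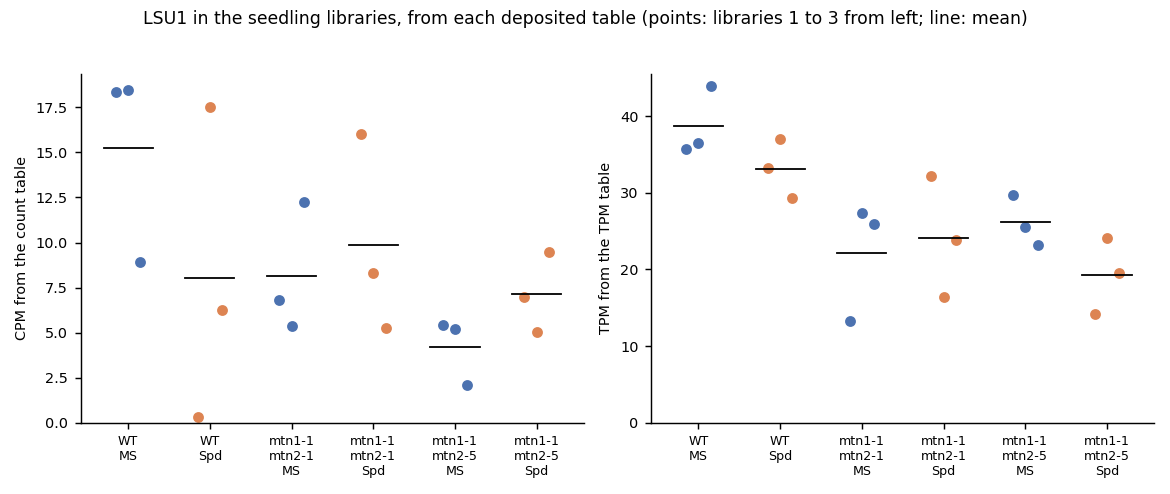
LSU1 in the 18 seedling libraries as CPM from the count table (left) and as TPM from the TPM table (right), both linear from 0; points are libraries 1 to 3 from left, lines group means. WT spermidine library 1 is at 0.285 CPM but at 33.2 TPM, and the spread among replicates is wider by counts.

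LSU4, BGLU28 and SLIM1 were called in 0 of the 11 seedling comparisons by edgeR. SLIM1 spanned 20.3 to 25.1 CPM, and its fitted differences had narrow intervals, such as -0.24 to 0.019 for mtn1-1mtn2-1 against WT on MS and -0.14 to 0.12 for spermidine in WT. The transcript of the regulator stayed within this range while 6 of the other markers were lower. LSU4 was at 5.97, 5.23 and 4.92 CPM in WT on MS and at 4.50, 5.81 and 4.24 in mtn1-1mtn2-1, with a 95% interval of -0.62 to 0.33 in that comparison and of -0.83 to 0.12 for mtn1-1mtn2-5. BGLU28 was low and variable. Its mtn1-1mtn2-1 libraries on MS had 2.35, 5.12 and 0.897 CPM, against 3.21, 4.35 and 4.29 in WT, and its 95% interval there was -1.50 to 0.49. On spermidine BGLU28 was higher in all 3 mtn1-1mtn2-5 libraries, 2.63, 4.94 and 2.997 CPM, than in those of mtn1-1mtn2-1, 1.93, 1.10 and 1.77 CPM, but missed the threshold (1.14, adjusted p = 0.092).

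A list of 23 genes of sulfate uptake and reduction and of cysteine and glutathione synthesis was counted in the same fits. In mtn1-1mtn2-1 against WT on MS 8 were lower, where 8.12% of all genes were, and 0 higher, with a median of -0.19. The adenosine phosphosulfate reductases APR1, at -1.12 (adjusted p = 0.00039), and APR3, at -1.23 (adjusted p = 0.00039), and the serine acetyltransferase SERAT3;2, at -1.31 (adjusted p = 0.0092), had differences of at least 1. In mtn1-1mtn2-5 against WT on MS 4 were lower, beside 4.33% of all genes, and 0 higher, and without the library in which MTN1 stood apart 2 were lower. Without that library 1347 of all genes were called in either direction, where 1939 were with it. With spermidine 4 fell in WT, beside 6.13% of all genes, 0 were called in mtn1-1mtn2-1, and 7 fell in mtn1-1mtn2-5, beside 3.09%, or 5 without that library. None rose in any of these 3. For spermidine in mtn1-1mtn2-5, 485 of all genes were called in either direction without that library, where 1248 were with it. The response of mtn1-1mtn2-1 was higher than that of WT for 5 of the 23, beside 3.57% of all genes, and that of mtn1-1mtn2-5 for 0 with or without that library. Between the mutants on MS 10 were called, 7 higher in mtn1-1mtn2-5 and 3 lower, where 27.7% of all genes were called. The ATP sulfurylase APS3 was higher there by 1.15. Without that library 7 were higher and 1 lower, with APS3 at 1.17. All genes called in either direction then numbered 5527, where they were 6986 with it. On spermidine 1 was higher and 5 lower in mtn1-1mtn2-5 than in mtn1-1mtn2-1, beside 14.2% of all genes that were lower, with APR3 at -1.08 and SERAT3;2 at -1.07. In either direction 6562 of all genes were called there. Against WT on spermidine 3 were higher in mtn1-1mtn2-1, beside 10.9% of all genes, and 1 lower, where 4597 of all genes were called in either direction. In mtn1-1mtn2-5 5 were called against WT on spermidine, all lower, beside 13% of all genes called in either direction.

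A list of 18 relatives of the markers (the EIN3/EIL, SHM, GGCT, BGLU and myrosinase families, 15 tested in seedlings) had 3 higher and 2 lower genes in mtn1-1mtn2-1 against WT on MS, where 8.12% of all genes were lower. In either direction 3964 of all 25201 genes were called there. In mtn1-1mtn2-5 it had 1 and 0, and 0 and 0 without the library in which MTN1 stood apart. All genes called in either direction numbered 1939 with that library and 1347 without it. With spermidine in WT 0 rose and 2 fell, beside 6.13% of all genes. On spermidine the beta-glucosidase BGLU30 was lower in mtn1-1mtn2-5 than in WT by -1.53 (log2) and than in mtn1-1mtn2-1 by -1.12, and SHM5 was higher than in mtn1-1mtn2-1 by 1.35.

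The seedling pattern closest to that of SDI1 was sought among all tested genes by the root mean square difference of centred log2 CPM over the 6 group means, as a description only. SERAT3;2 (AT4G35640) came first at 0.16, then AT5G03350 at 0.20, the methyl esterase gene MES18 (AT5G58310) at 0.21, AT1G50770 at 0.25 and AT4G38560 at 0.26. Of the markers, GGCT2;1 ranked 12 and LSU3 13, both at 0.27, SHM7 ranked 42, LSU2 156 and SDI2 222, while LSU4 ranked 1691, SLIM1 5665, BGLU28 14745 and LSU1 17876 of 25201. Without the mtn1-1mtn2-5 library in which MTN1 stood apart, AT3G17760 came first at 0.15, AT5G03350 second and SERAT3;2 ranked 3 at 0.20, while GGCT2;1 ranked 7, LSU3 16, SHM7 36, LSU2 87 and SDI2 279.

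In flower buds, mtn1-1mtn2-1 is set first against the libraries with high MTN1 and MTN2, labelled G3 in the count table and WT in that of TPM. BGLU28 and GGCT2;1 were lower in the libraries labelled G3 than in mtn1-1mtn2-1 on MS, and LSU4, SLIM1 and SHM7 higher, so that by the names used for TPM 2 markers were higher and 3 lower in the mutant than in WT. Those labelled G3 thus had 3 higher markers, against 16.8% of all genes, and 2 lower ones, against 16.2%. BGLU28 was at 4.84, 3.91, 4.07 and 4.38 CPM in those labelled G3 (-1.69, SE 0.36, adjusted p = 9.3e-04), below every library of mtn1-1mtn2-1, which was at 8.68, 8.66, 14.3 and 24.0. GGCT2;1 was lower by -0.96 (adjusted p = 0.0018), with overlap. Besides LSU4, SLIM1 was higher by 0.38 (adjusted p = 0.0068) and SHM7 by 0.31 (adjusted p = 0.021), the latter lost without library 1 or 3 of either group. SLIM1 was at 24.8, 27.8, 28.2 and 26.8 CPM in those labelled G3 and at 23.6, 22.9, 19.1 and 17.2 in those labelled mtn1-1mtn2-1, without overlap. By limma on TPM, in which the names give the mutant against WT, GGCT2;1 and BGLU28 were higher in the mutant, with differences of 0.77 and 1.28, as was LSU1 (0.69 ± 0.26, adjusted p = 0.041, mean ± SE). LSU4, SHM7 and SLIM1 were lower at -1.73, -0.36 and -0.43, and SDI1, SDI2 and LSU3 were not called. Leaf markers summed to 18065 to 21831 CPM in mtn1-1mtn2-1 and to 12988 to 15747 in those labelled G3 (5 of 5 markers detected), and their part in the result was not tested.

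LSU4 was at 18.7, 20.3, 29.1 and 23.0 CPM in the libraries labelled G3, at 15.0, 13.2, 9.96 and 11.1 in those labelled WT and at 7.49, 8.63, 4.75 and 7.07 in those labelled mtn1-1mtn2-1 on MS. The lowest library labelled G3 was above every library of the other groups. Against those labelled WT the log2 fold change was 0.89 (SE 0.20, adjusted p = 0.002), and against those labelled mtn1-1mtn2-1 it was 1.71 (SE 0.21, adjusted p = 2.3e-06). By the TPM names LSU4 was therefore lower in mtn1-1mtn2-1 and in G3 than in WT.

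On spermidine, SDI1, LSU1, LSU3, BGLU28 and GGCT2;1 were lower in the libraries labelled G3 than in mtn1-1mtn2-1, 5 markers beside 13.1% of all genes, and LSU4 alone was higher, beside 13.9%. Under the names of the TPM table these 5 were higher in the mutant than in WT and LSU4 lower. SDI1 was at 6.52, 6.14, 4.07 and 6.99 CPM in mtn1-1mtn2-1 and at 2.12, 2.21, 2.93 and 3.65 in those labelled G3 (-1.12, SE 0.24, adjusted p = 0.0012). LSU1 was at 3.13, 3.30, 3.24 and 3.93 CPM in the mutant. In those labelled G3 it was at 0.332, 0.440, 0.439 and 0.272, from 24 to 40 counts per library at about 3.96 counts per fragment (-3.19, SE 0.52, adjusted p = 1.0e-04). Both genes were apart between the groups. BGLU28 was at 14.2, 11.0, 9.67 and 38.0 CPM in the mutant and at 2.93, 3.83, 4.44 and 5.08 in those labelled G3 (-2.16, adjusted p = 1.5e-04). GGCT2;1 and LSU3 were lower in those labelled G3 by -1.26 and -1.21, and LSU4 was higher by 1.13. None of these 4 overlapped, but the share of all genes without overlap was not counted. Mutant library 4 held the highest BGLU28 value, 38.0 CPM, and the highest LSU3 value, 10.7 CPM, of its group, and without it the differences were -1.54 and -0.97, both still called. Under the TPM names limma gave the mutant higher values than WT for SDI1 (0.94), LSU1 (2.28), LSU3 (1.05), BGLU28 (1.63) and GGCT2;1 (1.11) and a lower one for LSU4 (-1.15), each with an adjusted p of at most 0.0021.

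Most of the called markers were lower in the libraries with high MTN1 and MTN2 than in those labelled WT in the count table, in which both are low and which are G3 in the TPM table. On MS, 5 markers were lower in the libraries labelled G3 than in those labelled WT, against 14.9% of all genes, and 1 was higher, against 14.6%. SDI1 was at 3.33, 3.74, 3.38 and 3.30 CPM in those labelled G3 and at 5.19, 6.75, 8.35 and 8.53 in those labelled WT, without overlap (log2 fold change -1.07, SE 0.23, adjusted p = 0.0015). GGCT2;1 was at 5.45, 3.71, 4.59 and 3.61 CPM in those labelled G3 and at 8.21, 9.39, 9.70 and 11.6 in those labelled WT, also apart (-1.16, SE 0.22, adjusted p = 3.7e-04). LSU3 overlapped, with library 1 labelled WT at 6.22 CPM beside 10.6 to 14.8 in the other 3 (-1.13, SE 0.26, adjusted p = 0.002). LSU2 at -0.72 (adjusted p = 0.04) and SDI2 at -0.52 (adjusted p = 0.027) were near the threshold. LSU2 was lost in 7 of 8 fits without 1 library, all but that without library 4 labelled WT (range -0.78 to -0.67), and with the replicate block (adjusted p = 0.051, count 5). SDI2 was lost without library 2 or 3 labelled G3 or 3 or 4 labelled WT (range -0.62 to -0.40). Under the TPM names these 5 markers were higher in G3 than in WT. Floral organ markers summed to 728 to 814 CPM in those labelled G3 and to 545 to 616 in those labelled WT (4 of 4 markers detected), without overlap, and their part in the result was not tested. LSU2, whose neighbour LSU4 was higher in those labelled G3, thus differed from it in direction.

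**Figure D4:**
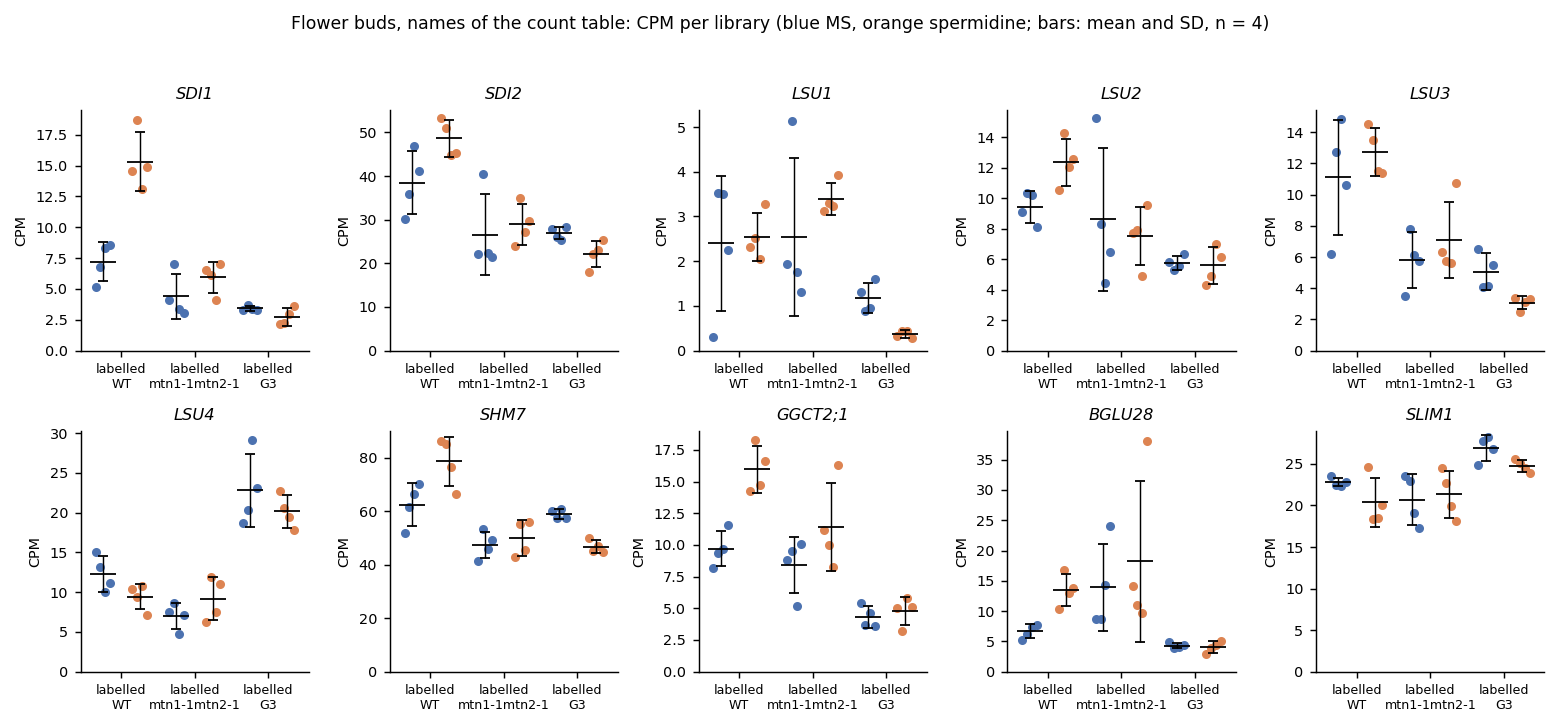
CPM of each marker (vertical axis, linear, from 0) in every bud library under the names of the count table, MS in blue and spermidine in orange; points are libraries, bars the mean and SD of 4. On spermidine the libraries labelled G3 are below those labelled WT without overlap for SDI1, SDI2, LSU1, LSU2, LSU3, BGLU28, SHM7 and GGCT2;1 and above them for LSU4. The share of all genes without overlap was not counted.

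The libraries labelled mtn1-1mtn2-1 and WT, both low in MTN1 and MTN2 and named mtn1-1mtn2-1 and G3 under the TPM names, differed in 6 markers on MS, with 5 lower in mtn1-1mtn2-1 against 11.6% of all genes and 1 higher against 9.09%. The contrast of the mutant with libraries high in both genes is the one given first. The glucosinolate-degrading BGLU28 was at 5.28, 6.23, 7.41 and 7.77 CPM in the libraries labelled WT, below every mutant library (1.06, SE 0.35, adjusted p = 0.036), with a wide spread in the mutant. LSU4 was lower at -0.82 (adjusted p = 0.006), and LSU3, SDI1, SDI2 and SHM7 were lower at -0.94, -0.71, -0.54 and -0.40, with overlapping libraries for each of these 4. Mutant library 2 held the highest SDI1, SDI2, LSU1, LSU3 and LSU4 values of its group. Most of these calls depended on the fit or on single libraries. When the fit held only these groups the count was 1, LSU4, and leaving out 1 library gave 3 to 6, with 3 without mutant library 3 or 4 or library 2 or 3 labelled WT. How many of all genes were called in each of those fits was not counted. SDI1 and SDI2 were each lost without mutant library 1, 3 or 4 or library 2, 3 or 4 labelled WT, BGLU28 without mutant library 3 or 4 or library 1 or 2 labelled WT, and LSU3 without library 3 labelled WT. Leaf markers summed to 12062 to 14290 CPM in the libraries labelled WT and floral organ markers to 545 to 616, against 18065 to 21831 and 630 to 747 in mtn1-1mtn2-1, both without overlap, and their part in the result was not tested.

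On spermidine the libraries labelled G3 and WT differed in all 10 markers, 8 lower in those labelled G3 against 12.8% of all genes and 2 higher against 13.6%. Under the TPM names the 8 were higher in G3 than in WT. The libraries labelled WT had SDI1 at 14.6, 18.7, 13.1 and 14.9 CPM, and it was 5.62 times lower on average in those labelled G3 (log2 fold change -2.49, SE 0.24, adjusted p = 1.2e-07). LSU3 was at 3.38, 2.47, 3.10 and 3.32 CPM in those labelled G3 and at 14.6, 13.5, 11.5 and 11.4 in those labelled WT (-2.06, SE 0.26, adjusted p = 5.1e-06). For both genes the groups were far apart. GGCT2;1 was at 5.01, 3.20, 5.81 and 5.07 CPM in those labelled G3 and at 14.2, 18.3, 14.7 and 16.6 in those labelled WT (-1.74, SE 0.22, adjusted p = 4.3e-06). BGLU28 was at 2.93, 3.83, 4.44 and 5.08 CPM in those labelled G3 and at 10.3, 16.7, 13.01 and 13.8 in those labelled WT (-1.73, adjusted p = 0.001). Neither overlapped. LSU1 was at 2.31, 2.51, 2.04 and 3.29 CPM in those labelled WT, far above those labelled G3 (-2.77, SE 0.51, adjusted p = 3.3e-04). LSU2, SDI2 and SHM7 were lower by -1.14, -1.14 and -0.75, again without overlap. LSU4 was higher by 1.09 (adjusted p = 3.3e-04), without overlap, and SLIM1 by 0.28 (adjusted p = 0.047), with overlap. The share of all genes without overlap between these groups was not counted. The SLIM1 call was lost in 7 of 8 fits without 1 library, all but that without Spd library 1 labelled WT (range 0.22 to 0.39). Floral organ markers summed to 622 to 738 CPM in those labelled G3 and to 479 to 555 in those labelled WT, and leaf markers to 13856 to 16533 and 11807 to 12747. Neither sum overlapped, and their part in the result was not tested.

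The libraries labelled mtn1-1mtn2-1 lay between the other 2 groups on spermidine for SDI1 and LSU3. Against those labelled WT, which are G3 under the TPM names, 4 were lower in mtn1-1mtn2-1 and 0 higher, beside 8.23% of all genes that were lower. SDI1 in mtn1-1mtn2-1 was below every library labelled WT (-1.37, SE 0.23, adjusted p = 2.7e-04). SDI2 was lower than in those labelled WT by -0.75, SHM7 by -0.65 and LSU3 by -0.84 (adjusted p = 0.025), without overlap. LSU3 was lost without mutant Spd library 1, 2 or 3 or Spd library 1 or 2 labelled WT (range -1.10 to -0.75). Floral organ markers summed to 683 to 742 CPM in mtn1-1mtn2-1 and leaf markers to 13696 to 17986, both above the libraries labelled WT without overlap, and their part in the result was not tested.

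**Figure D5:**
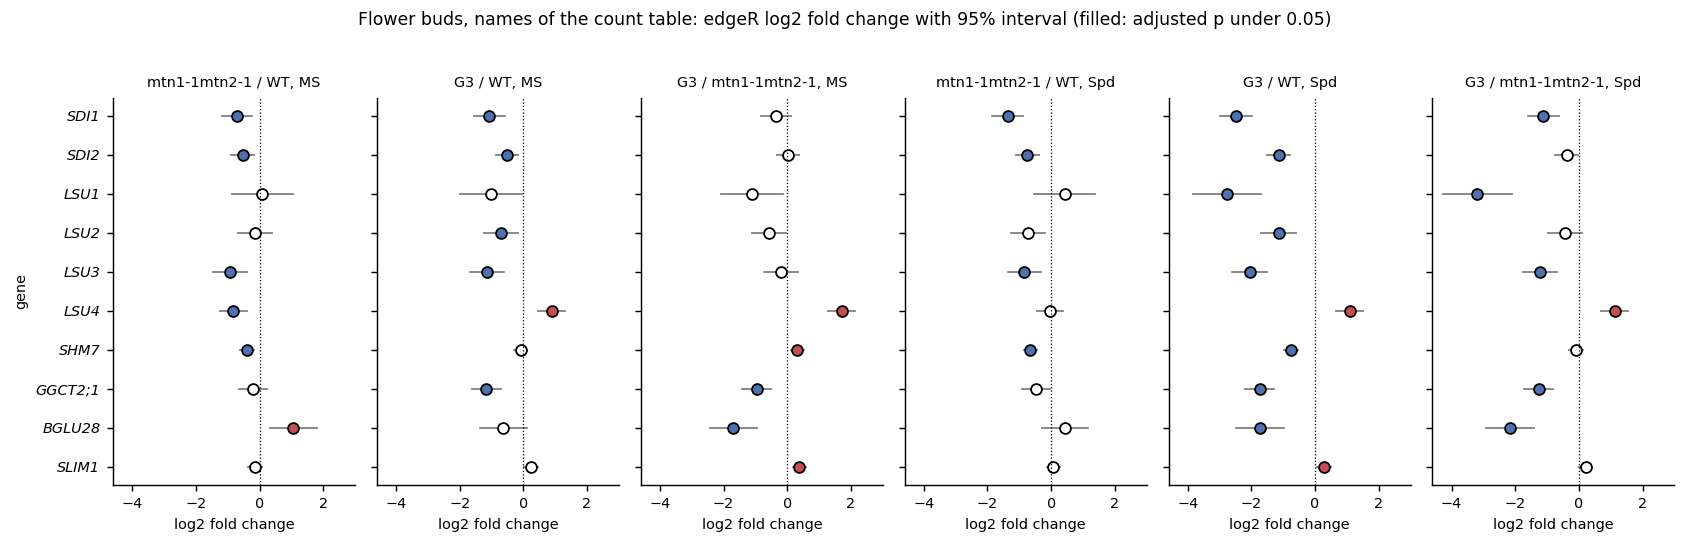
Log2 fold change of each marker (horizontal axis) with its 95% interval in 6 comparisons of bud libraries under the names of the count table, 4 libraries per group, filled where the adjusted p is under 0.05. All 10 points are filled for G3 against WT on spermidine, 8 below 0 and LSU4 and SLIM1 above it; under the names of the TPM table the signs of G3 against WT turn round.

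Few bud markers were called for spermidine. In the libraries labelled WT, low in MTN1 and MTN2 and G3 in the TPM table, 1 marker rose, SDI1, from 5.19, 6.75, 8.35 and 8.53 CPM on MS to 14.6, 18.7, 13.1 and 14.9 on spermidine, without overlap (1.09, SE 0.23, adjusted p = 0.024), beside 0.587% of all genes that rose. For limma, with the TPM names, SDI1 was at 1.04 for spermidine in G3 (adjusted p = 0.011) and -0.27 in WT (adjusted p = 0.71). The edgeR call was lost without MS library 1 or 2 or Spd library 2 or 4 labelled WT (range 0.97 to 1.19). BGLU28 at 1.01 (adjusted p = 0.2) and GGCT2;1 at 0.72 (adjusted p = 0.12) also did not overlap between the media but missed the threshold. In the libraries labelled mtn1-1mtn2-1 edgeR called 0 markers and 0.0972% of all genes. At an unadjusted p under 0.05, by DESeq2 and by limma the markers were 0 as well, beside 2641, 302 and 27 genes. In those labelled G3, the WT of the TPM table, edgeR called 0 markers and 0.0155% of all genes. At an unadjusted p under 0.05 there were 3 markers (LSU1, LSU3 and SHM7) and 2426 genes. DESeq2 called 1 marker and 224 genes. Limma, in which these libraries are WT, called 0 markers and 7 genes. LSU1 was at 1.30, 0.876, 0.946 and 1.60 CPM on MS and 0.332, 0.440, 0.439 and 0.272 on spermidine in those libraries (-1.67, 95% interval -2.72 to -0.62, adjusted p = 0.22).

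The spermidine response differed from that of the libraries labelled WT for 0 markers by edgeR in those labelled mtn1-1mtn2-1, where 0.346% of all genes were called, and for 0 in those labelled G3, where 0.00389% were. With the TPM names the reference is the other set of libraries, and the counts were 0 and 0 as well. Under the count-table names the unadjusted counts were 1 and 6, beside 3337 and 1434 of all genes. DESeq2, under the same names, called 0 and 2 markers, beside 520 and 14 genes. Limma uses the TPM names, so its reference is the libraries high in MTN1 and MTN2. It called 0 and 0 markers, beside 6 and 0 genes. Its largest marker difference for mtn1-1mtn2-1 was LSU1 at 1.59 (unadjusted p = 2.8e-04, adjusted p = 0.075). By edgeR under the count-table names the widest difference was LSU1 in those labelled G3, at -1.75 (95% interval -3.16 to -0.33). SDI1 had -1.42 there (-2.10 to -0.74, adjusted p = 0.4). The LSU1 value rests in part on MS library 1 labelled WT, where counts and TPM disagreed. It held 24 LSU1 counts, or 0.298 CPM, but 4.18 TPM once the names were exchanged. Its ratio of TPM to CPM was 14.2, where the median of the 24 bud libraries was 2.17.

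Of the 22 sulfate and cysteine genes tested in buds, 6 were higher and 8 lower in the libraries labelled G3 than in those labelled WT on spermidine, beside 13.6% and 12.8% of all genes, with APR3 at -1.12 and SERAT3;2 at -1.31. On MS 5 were higher and 2 lower, beside 14.6% and 14.9%. These directions turn round under the TPM names. The libraries labelled mtn1-1mtn2-1 had 5 higher and 0 lower than those labelled WT on MS, beside 9.09% and 11.6% of all genes, and 2 and 3 on spermidine, beside 8.23% that were lower. In either direction 4450 of all genes were called in that comparison on spermidine. Those labelled G3, the WT of the TPM table, had 2 higher and 5 lower than mtn1-1mtn2-1 on MS, beside 16.8% and 16.2%, and 3 and 4 on spermidine, beside 13.9% and 13.1%. With spermidine 2 rose in the libraries labelled WT, beside 0.587%. Of the relatives, 17 tested, BGLU30 was higher in mtn1-1mtn2-1 than in the libraries labelled WT on MS by 3.15 (log2) and lower in those labelled G3 than in mtn1-1mtn2-1 by -3.29, with overlapping libraries in both. The bud patterns closest to that of SDI1 were those of AT1G14455, AT2G06090, AT5G59170, AT1G45190 and AT5G12060, at 0.19 to 0.22, all with group means under 1 CPM. LSU3 ranked 16, GGCT2;1 40, LSU2 200 and SDI2 237, and LSU4 ranked 24027 of 25730.

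The tables of the 2 tissues were made separately, so levels across them are given only side by side. Under the names of the TPM table, where MTN1 is high in WT, SDI1 was at 37.6 ± 7.97 TPM in WT seedlings and 4.36 ± 0.224 in buds on MS, and SHM7 at 136 ± 17.0 and 42.5 ± 1.44. LSU4 was at 9.81 ± 0.687 TPM in WT seedlings and 46.1 ± 9.56 in buds, where it was the highest of the markers by mean, with SHM7 next and overlapping. SLIM1 was at 15.2 ± 0.426 TPM in seedlings and 18.2 ± 1.38 in buds.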

How the data were processed

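Polyadenylated RNA was sequenced by either of 2 providers, per the labels' protocols, and which provider made which library is not given. Trim Galore, STAR, StringTie and the build TAIR10 are named in the submitters' processing notes, without versions. The deposited count tables hold estimated counts per gene, made by the authors, in which 1 fragment equals about 3.33 units in seedlings and 3.96 in buds (from the low values). TPM are as the authors deposited them. All columns matched a sample, and 0 were left over. Each tissue was fitted with edgeR 4.0.16 in R 4.3.3 on the counts as whole numbers, with 6 groups in 1 model, filterByExpr, TMM scaling, the quasi-likelihood test and Benjamini-Hochberg adjustment over 25201 or 25730 genes, within each of 22 comparisons, and a gene is called at an adjusted p under 0.05. CPM were computed with the TMM-scaled library sizes. Limma 3.58.1 on log2(TPM + 1), for genes with a mean of at least 0.1 TPM, and DESeq2 1.42.0 were alternatives, as were other scalings and filters, the replicate block and each library left out in turn. All genes called were counted for limma, DESeq2 and the fits without mtn1-1mtn2-5 MS library 2, and for no other alternative. Counts of listed genes and likeness ranks without the mtn1-1mtn2-5 library in which MTN1 stood apart were added after seeing the data. Fits were tested on simulated data. The genes named are the 10 markers, MTN1 and MTN2, listed genes called with a log2 difference of at least 1 between genotypes, and the 5 closest to SDI1. Called SHM5 values in buds rest on counts at or near 0 and are left out. The markers and lists were chosen with earlier results of these data known. No pair of replicates was identical. Intervals are 95% intervals of the fit. A lack of overlap between groups describes the libraries only, because the share of all genes without overlap was not counted.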

Additional observations from a re-analysis of the deposited data

Results flagged for a closer look

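In 4 of the 60 sets formed by 1 marker in 1 group of 4 bud libraries, 1 library lay far from the other 3, where chance alone gives about 1 in 20. SDI2 in the libraries labelled mtn1-1mtn2-1 on MS was at 40.5 CPM in library 2, with the others at 21.3 to 22.3. LSU1 in the same library was at 5.15 CPM, with the others at 1.31 to 1.93. LSU3 was at 10.7 CPM in library 4 labelled mtn1-1mtn2-1 on spermidine, with the others at 5.63 to 6.34, and BGLU28 in that library was at 38.0 CPM, with the others at 9.67 to 14.2.

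The response to spermidine differed between genotypes in seedlings by the test of the interaction. In mtn1-1mtn2-1 the log2 response was higher than in WT by 2.01 for SDI1, 2.02 for SDI2, 1.40 for LSU2, 2.25 for SHM7 and 1.28 for GGCT2;1. In mtn1-1mtn2-5 it was higher by 1.45 for SDI2. All of these share the WT libraries on MS and on spermidine.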

How the results depend on the processing

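Bud groups carry the count-table names in this section, as labels only, unless the TPM names are stated. Of 67 called marker values, all 67 kept direction and call with DESeq2 size factors, the DESeq2 Wald test, a mean of at least 50 counts, and counts divided by the units per fragment. Without the filter 2 were lost, the GGCT2;1 interaction in mtn1-1mtn2-1 (adjusted p = 0.054) and SLIM1 for G3 against WT on Spd in buds (adjusted p = 0.070). In fits of the compared groups alone 7 were lost, GGCT2;1 for mtn1-1mtn2-5 against WT on MS (adjusted p = 0.074) and SDI1 between the mutants on Spd in seedlings, and in buds SDI1, SDI2, LSU3, BGLU28 and SHM7 for mtn1-1mtn2-1 against WT on MS. Counts of called markers then were 1 for mtn1-1mtn2-5 against WT on Spd and 1 for mtn1-1mtn2-1 against those labelled WT on MS in buds. For spermidine in buds they were 3 in those labelled WT and 2 in those labelled G3. How many of all genes the fits of the compared groups alone called was not counted. DESeq2 gave 2 for mtn1-1mtn2-5 against mtn1-1mtn2-1 on MS and 3 for spermidine in mtn1-1mtn2-5, beside 7827 and 2254 of all genes. In buds it gave 2 for spermidine in the libraries labelled WT and 1 in those labelled G3, beside 696 and 224 genes. It gave 2 for the interaction of those labelled G3, beside 14 genes. Limma on TPM gave 1 for mtn1-1mtn2-5 against mtn1-1mtn2-1 on MS. For spermidine in buds limma gave 0 in WT and 1 in G3, both by the TPM names. With edgeR the TPM names gave 0 and 1 there as well.

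Leaving out 1 library gave 0 to 1 markers for mtn1-1mtn2-5 against mtn1-1mtn2-1 on MS, 2 to 3 for mtn1-1mtn2-1 against WT on Spd, 4 to 6 for spermidine in WT, 3 to 5 and 1 to 2 for the interactions of mtn1-1mtn2-1 and mtn1-1mtn2-5, and in buds 3 to 6 for mtn1-1mtn2-1 against WT on MS and on Spd, 4 to 7 for G3 against mtn1-1mtn2-1 on MS and 0 to 1 for spermidine in WT. For the fits without 1 library, all genes called were counted only without mtn1-1mtn2-5 MS library 2. With the replicate number as a block 65 of 67 calls held, all but GGCT2;1 for the mtn1-1mtn2-1 interaction and LSU2 for G3 against WT on MS in buds. Correlations of deviations between libraries of the same number were -0.127 to 0.115, with no comparison in which every pair passed 0.1. In 1 of 18 every library correlated best with its own number. That was mtn1-1mtn2-1 against WT on Spd in seedlings, with correlations of 0.059 to 0.101. The main fits did not use the number, and the labels give no batch.

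Under the bud names of the TPM table, and in limma on TPM, which uses those names, 27 values turned round in each; the pair of values is given in that order. For G3 against WT on MS they were 1.07 and 0.89 for SDI1, 0.52 and 0.46 for SDI2, 0.72 and 0.62 for LSU2, 1.13 and 1.02 for LSU3, -0.89 and -0.88 for LSU4, and 1.16 and 1.05 for GGCT2;1. For G3 against WT on Spd they were 2.49 and 2.20 for SDI1, 1.14 and 1.11 for SDI2, 2.77 and 1.90 for LSU1, 1.14 and 1.10 for LSU2, 2.06 and 1.89 for LSU3, -1.09 and -1.06 for LSU4, 1.73 and 1.44 for BGLU28, 0.75 and 0.74 for SHM7, 1.74 and 1.61 for GGCT2;1, and -0.28 and -0.27 for SLIM1. For G3 against mtn1-1mtn2-1 they were 0.21 and 0.28 for GGCT2;1 on MS, and on Spd 1.37 and 1.26 for SDI1, 0.84 and 0.83 for LSU3, and 0.48 and 0.50 for GGCT2;1. For mtn1-1mtn2-1 against WT on MS they were 0.35 and 0.20 for SDI1 and 0.20 and 0.13 for LSU3, and on Spd 1.12 and 0.94 for SDI1, 0.39 and 0.37 for SDI2, 1.21 and 1.05 for LSU3, and 0.0957 and 0.0916 for SHM7. Spermidine in WT gave -0.33 and -0.27 for SDI1. Another 5 calls under the TPM names and 6 in limma were lost without turning round. The exchange of 2 names is what turns these signs. MTN1 and MTN2 are at or near the level of mtn1-1mtn2-1 seedlings in every bud library named WT in the count table. Both are high in every one named G3, so both genes go against the count-table names.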
